A study of Homo sapiens with 16 samples.

Results

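The aldo-keto reductases AKR1C1, AKR1C2, AKR1C3 and AKR1B1 and the oxidative stress genes NQO1, HMOX1, GCLC, GCLM and SRXN1 were followed through RNA sequencing of MDA-MB-231 cells, an established human triple-negative breast cancer line, with and without TXNIP, a glucose-responsive alpha-arrestin that binds thioredoxin. These 9 genes were found by symbol among 60620 gene identifiers counted in every library. AKR1C3 was selected on its measured counts, which rose in untreated TXNIP knockout cells, so the untreated comparison describes these genes and tests nothing about them. The 16 libraries covered unedited parental cells and knockout cells (TKO) without treatment, with 2 replicates each, and both populations 48 hours after transfection of a non-targeting siRNA (siNT) or an siRNA against Myc (siMyc), with 3 replicates each. The TKO cells were made with a CRISPR/Cas9 plasmid, and the study isolated knockout clones from single cells, so a difference between TKO and parental cells cannot be told apart from a difference between clones. All groups grew in the same medium, and every siRNA group shares the transfection. The study calls the replicates of untreated cells and of siRNA-treated TKO cells biological. For the parental siRNA libraries no source used here says that they came from separate cultures, and p-values there measure only the spread between these libraries, which may be technical. In bulk RNA, fewer cells expressing a gene and less RNA per cell cannot be told apart.

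NRF2, the product of NFE2L2, is a transcription factor that the ubiquitin ligase adaptor KEAP1 holds at a low level in unstressed cells. When electrophiles or oxidants modify KEAP1, NRF2 accumulates, pairs with a small MAF protein and binds antioxidant response elements near its target genes. AKR1C1, AKR1C2 and AKR1C3 use NADPH to reduce ketone groups of steroids and prostaglandins, and also lipid aldehydes. AKR1C3 is also known as 17-beta-hydroxysteroid dehydrogenase type 5 and prostaglandin F synthase. AKR1B1 is aldose reductase, the first enzyme of the polyol pathway. NQO1 reduces quinones, HMOX1 opens the heme ring, GCLC and GCLM are the catalytic and modifier subunits of the enzyme that starts glutathione synthesis, and SRXN1 repairs overoxidized peroxiredoxins. HMOX1 is also strongly held down by the repressor BACH1, and SRXN1 responds to AP-1 as well as to NRF2.

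Promoter sequences are shown for the AKR1C genes because these neighbours moved unequally, and for GCLM because its window held an NRF2 motif. Windows from 250 bases before to 50 bases after the transcription start were taken from RefSeq on GRCh38.p14, which held 10 windows for 8 of the 9 genes. AKR1C1 lies on chromosome 10 from 4963253 to 4983283 on the plus strand, AKR1C2 from 4987400 to 5018031 on the minus strand and AKR1C3 from 5035354 to 5107686 on the plus strand, so the 3 genes are neighbours. The AKR1C1 window was chr10:4963165-4963464 (+), the AKR1C2 window chr10:5003808-5004107 (-) and the 2 AKR1C3 windows chr10:5048531-5048830 (+) and chr10:5094164-5094463 (+). Capitals mark bases that do not pair with an identical base of the AKR1C1 window in a global alignment.
AKR1C1: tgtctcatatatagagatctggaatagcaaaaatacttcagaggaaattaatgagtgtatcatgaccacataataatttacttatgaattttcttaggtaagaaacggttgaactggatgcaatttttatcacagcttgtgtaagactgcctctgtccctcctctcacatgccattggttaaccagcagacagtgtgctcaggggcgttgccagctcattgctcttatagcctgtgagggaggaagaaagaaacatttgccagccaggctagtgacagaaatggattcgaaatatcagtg
AKR1C2: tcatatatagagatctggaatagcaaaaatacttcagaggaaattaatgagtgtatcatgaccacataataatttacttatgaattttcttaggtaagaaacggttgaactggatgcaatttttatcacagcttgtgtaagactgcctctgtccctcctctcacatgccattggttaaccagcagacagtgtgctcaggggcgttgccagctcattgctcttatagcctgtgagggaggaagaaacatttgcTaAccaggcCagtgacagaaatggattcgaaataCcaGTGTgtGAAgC
AKR1C3, first window: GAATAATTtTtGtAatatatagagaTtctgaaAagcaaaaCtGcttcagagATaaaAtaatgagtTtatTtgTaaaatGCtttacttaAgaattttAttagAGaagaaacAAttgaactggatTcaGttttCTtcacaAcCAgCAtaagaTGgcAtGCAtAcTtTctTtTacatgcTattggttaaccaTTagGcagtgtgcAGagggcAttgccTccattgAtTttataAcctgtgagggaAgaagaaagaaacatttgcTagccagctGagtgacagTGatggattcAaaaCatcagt
AKR1C3, second window: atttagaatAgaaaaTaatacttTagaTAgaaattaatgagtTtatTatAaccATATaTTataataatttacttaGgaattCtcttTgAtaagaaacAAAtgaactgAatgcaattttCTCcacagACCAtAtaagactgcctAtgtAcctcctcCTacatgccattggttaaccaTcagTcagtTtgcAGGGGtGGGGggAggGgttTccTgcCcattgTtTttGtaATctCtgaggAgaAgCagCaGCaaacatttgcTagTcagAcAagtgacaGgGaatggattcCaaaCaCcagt
The AKR1C1 and AKR1C2 windows were identical at 93.5% of aligned positions, and the first and second AKR1C3 windows matched that of AKR1C1 at 74.9% and 72.2%.

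None of the AKR1C, AKR1B1, NQO1, GCLC and SRXN1 windows held the core of an antioxidant response element, spelled TGACNNNGC and searched on both strands, which says only that these letters are not in these windows. The GCLM window, chr1:93909381-93909680 (-), held this core on the strand opposite to the gene, from 34 to 26 bases before the start, and the match is in capitals.
GCLM: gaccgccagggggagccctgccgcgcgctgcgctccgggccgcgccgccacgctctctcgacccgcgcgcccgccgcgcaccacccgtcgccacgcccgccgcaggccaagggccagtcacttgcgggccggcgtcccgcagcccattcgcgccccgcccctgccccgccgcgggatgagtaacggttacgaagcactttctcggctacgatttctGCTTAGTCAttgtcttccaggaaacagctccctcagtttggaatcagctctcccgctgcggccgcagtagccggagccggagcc
Of 35116 RefSeq promoter windows of the same length, 13.3% held the core. The Myc E-box CACGTG, which reads the same on both strands and can overlap the other motif only in part, was in 7.26% of all windows and in 0 of the 10 windows of these genes.

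Counts of AKR1C1, AKR1C2 and SRXN1 rest on part of their transcripts. Of the 50-base stretches in annotated transcripts, 24.9% for AKR1C1, 36.0% for AKR1C2 and 6.09% for AKR1C3 also occurred in a transcript of another gene, mainly of one another. With 100-base stretches these shares were 13.6%, 20.1% and 2.00%. Single reads were counted without treatment and read pairs after siRNA, and reads with several placements were not counted. For SRXN1 the share was 90.6% at 50 bases and 90.4% at 100 bases, because a readthrough gene (ENSG00000270299) covers it on the same strand. A read that fits both equally is assigned to neither, and the readthrough gene had 0 counts in all 16 libraries. HMOX1 shared 0% at both lengths, NQO1 0.902% and GCLM 1.05% at 50 bases, and AKR1B1 and GCLC 5.99% and 6.35% at 50 bases. How far shared stretches shaped the values was not tested.

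Total counts per library lay between 18953668 and 59799444. TXNIP was at 282.7 to 282.8 CPM (counts scaled to library size with TMM over all libraries) in untreated parental cells and at 12.4 and 45.5 in the TKO replicates. In siRNA libraries TXNIP was at 6.54 to 10.2 CPM in TKO and at 302 to 467 in parental cells, and MYC was at 121 to 144 CPM with siNT and 58.1 to 67.6 with siMyc over both populations. Of the cell type markers checked, VIM, CD44, KRT18, FN1 and MSN were present in every library, SPARC was at 0.412 to 2.13 CPM, and ESR1, PGR, KRT5 and ALB were at or near 0. ERBB2 was at 76.2 to 106 CPM, EPCAM at 12.2 to 31.3 CPM and CDH1 at 0.267 to 9.42 CPM. Of markers of other cell types, PTPRC (leukocytes) was at up to 1.48 CPM and COL1A1 (fibroblasts) at 4.23 to 20.3 CPM. The untreated TKO replicates lay apart, with 424 of 13448 expressed genes more than 1 log2 unit from each other, against 1 gene for the parental replicates. In the parental siRNA libraries, siNT replicate 1 and siMyc replicate 3 deviated from their groups together (r = 0.939 over 10959 genes, a description of these libraries).

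Per kilobase of exon, NQO1 had the highest level of the 9 genes in all 6 groups and AKR1C2 the lowest, although in parental+siNT the mean of NQO1 (71.3 CPM per kilobase) was within the replicate spread of AKR1B1 (69.9). Full exon length was used, while counts of AKR1C1, AKR1C2 and SRXN1 rest on part of their transcripts, so their levels and ranks may be too low. In untreated parental cells, the means in CPM per kilobase were 47.5 for NQO1, 32.9 for AKR1B1, 25.4 for GCLM, 5.28 for GCLC, 4.34 for HMOX1, 3.00 for AKR1C3, 1.01 for SRXN1, 0.152 for AKR1C1 and 0.0350 for AKR1C2. AKR1C3 thus ranked below both glutathione genes and HMOX1 in that group. In untreated TKO it was at 20.05 CPM per kilobase, below GCLM at 24.98 and above GCLC at 4.92 and HMOX1 at 4.06. The order of GCLC and HMOX1 in TKO is not resolved, since the replicates of GCLC spanned 34.9 to 49.9 CPM. In TKO+siMyc, AKR1C3 stood at 51.9 CPM per kilobase, behind only NQO1 at 151 and AKR1B1 at 95.7 among these genes.

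**Figure D1:**
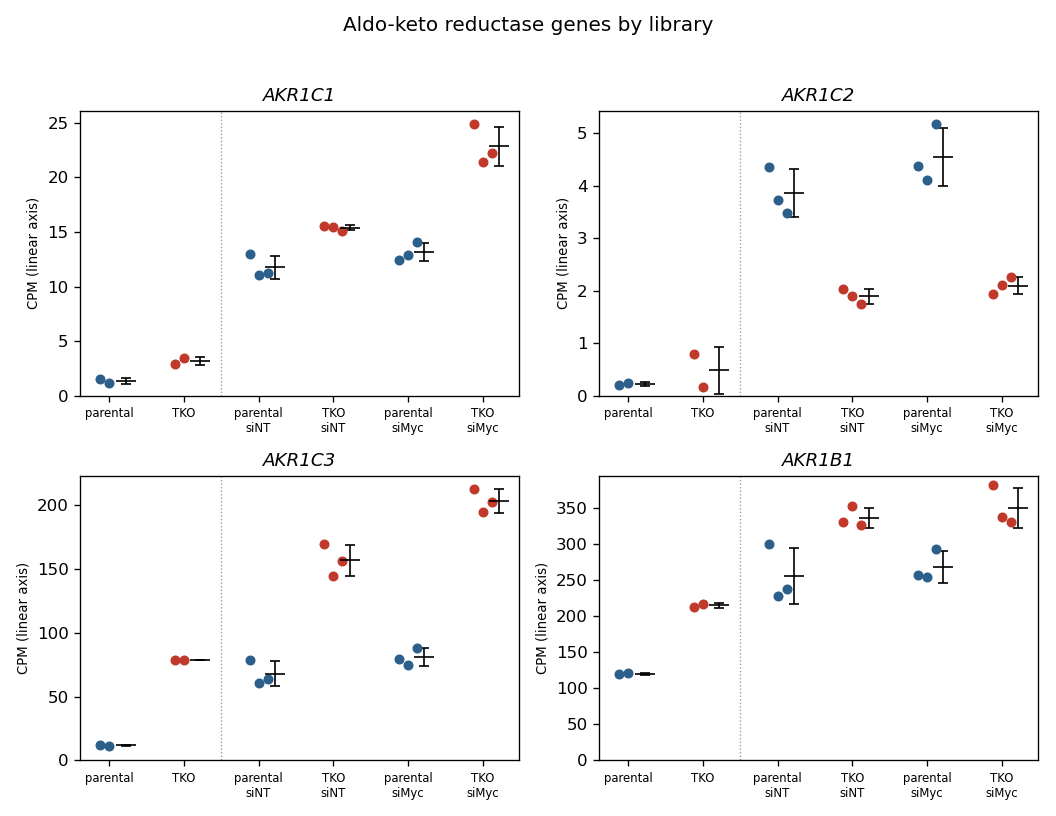
CPM of AKR1C1, AKR1C2, AKR1C3 and AKR1B1 in each library (points; red TKO, blue parental cells) for the 6 conditions, with the mean and SD (black). AKR1C3 sits between 11.3 and 12.1 CPM in untreated parental cells and at 78.4 and 78.5 in untreated TKO, and AKR1C2 is lower in TKO than in parental cells in the siRNA libraries.

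What differed between untreated TKO and parental cells was asked first. AKR1C3 was at 12.1 and 11.3 CPM in parental cells and at 78.4 and 78.5 in TKO. The groups did not overlap and the TKO replicates were alike for this gene, whose rise chose it. The log2 fold change was 2.73 with a standard error (SE) of 0.08, a 6.65-fold level. AKR1C1 was at 1.53 and 1.14 CPM in parental cells and at 2.93 and 3.43 in TKO, a log2 difference of 1.24 (SE 0.26) from 23 to 100 counts a library. AKR1C2 had 4 and 5 counts in parental cells and 24 and 5 in TKO, so its TKO replicates fell on different sides of the parental values and it gives no direction. AKR1B1 was at 119 and 121 CPM in parental cells and at 213 and 217 in TKO, a log2 difference of 0.83 (SE 0.06). The 45 expressed genes within 5 Mb of AKR1B1 on chromosome 7 had a median log2 difference of 0.51 in the same comparison, whereas the 31 around AKR1C3 on chromosome 10 had a median of 0.05. The part of the region in the AKR1B1 value was not tested.

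Among the NRF2 targets in untreated cells, NQO1 and SRXN1 were above parental levels in both TKO replicates, and the groups of HMOX1, GCLC and GCLM overlapped. NQO1 was at 139 and 143 CPM in parental cells and at 256 and 367 in TKO, above parental in both replicates but with the TKO replicates wide apart (log2 fold change 1.13, SE 0.19). SRXN1 was at 2.39 and 2.74 CPM in parental cells and at 4.47 and 5.18 in TKO. HMOX1 was at 10.1 and 9.90 CPM in parental cells and at 10.2 and 8.48 in TKO, and the groups overlapped. GCLC was at 46.4 and 44.6 CPM against 34.9 and 49.9, with 1 replicate of TKO below and the other above parental cells. GCLM was at 137 and 139 CPM against 125 and 146, in the same arrangement. The log2 differences of these last 3 genes were -0.10, -0.11 and -0.03. By edgeR's quasi-likelihood test with an adjusted p of at most 0.05, 3 of the 9 genes (AKR1C3, AKR1B1 and NQO1) were higher and 0 lower, beside 9.62% of 19951 genes called, 5.44% higher and 4.18% lower. Nothing is read from that count, since this contrast chose AKR1C3. Leaving out a library moved the calls of all genes as well as those of the 9. Without either parental replicate 0 of the 9 and 0 of all genes were called by edgeR, with 2141 to 2170 genes at an unadjusted p under 0.05. Without TKO replicate 1, 5 of the 9 and 6995 of 18700 genes were called. Without TKO replicate 2, 8 of the 9 and 6792 of 18846 genes were called, and of these 8 GCLC (log2 difference -0.39) and GCLM (-0.15) were lower.

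The regulators and the wider NRF2 program are described from the same contrast, which also limits them to a description. NFE2L2 itself was at 145 and 149 CPM in parental cells and at 194 and 199 in TKO, and KEAP1 at 75.02 and 74.8 against 101 and 105, both higher in TKO without overlap. The small MAF genes MAFF and MAFK, whose products pair with NRF2, had log2 differences of -0.78 and -0.49, and BACH1 of -0.32, at 91.4 CPM in parental cells and 73.7 in TKO. MAFG, the other small MAF gene listed, was not lower, at a mean of 81.8 CPM in parental cells and 88.0 in TKO. In all, 3 of 15 NRF2 control genes were called higher and 3 lower, beside 5.44% and 4.18% of all genes tested. Of 44 other NRF2 target genes 38 were tested, and 14 were called higher and 0 lower, beside the same shares of all genes. Their median log2 difference was 0.23 against 0.00 over all genes tested. Their number called was 0 without either parental replicate, 27 without TKO replicate 1 and 25 without TKO replicate 2. Largest among them were EPHX1, microsomal epoxide hydrolase (log2 difference 1.38), SLC7A11, the cystine importer that feeds glutathione synthesis (1.22, from 95.5 to 224 CPM), and GSTP1, a glutathione transferase (0.90).

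Whether the 9 genes differed between the populations in libraries not used to choose AKR1C3 was examined in the siNT-treated cells. The 9 genes and the gene lists were chosen with earlier results of these data known. Counts of called genes in the siRNA libraries are therefore not free of selection. AKR1C3, NQO1, HMOX1, GCLC, AKR1B1, AKR1C1 and GCLM were higher in TKO+siNT, and AKR1C2 was lower. By edgeR's quasi-likelihood test, 7 of 9 were called higher and 1 lower, where 36.8% of 23310 genes were called, 16.1% higher and 20.7% lower. Here TKO and parental libraries were counted with different annotation releases and formed separate sets, so the genotype, the set and the release cannot be told apart. The exon length of each of the 9 genes was identical in both releases.

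AKR1C3 was at 169, 144 and 156 CPM in TKO+siNT and at 78.9, 60.9 and 63.6 in parental+siNT, with no overlap. Its log2 fold change was 1.24 (SE 0.11, adjusted p = 9.21e-06 from edgeR), a 2.37-fold level. AKR1C1 was at 15.6, 15.4 and 15.1 CPM against 13.005, 11.1 and 11.3, also apart but by less (log2 fold change 0.42, SE 0.10, adjusted p = 0.00731). AKR1C2 went the other way, at 2.04, 1.90 and 1.75 CPM in TKO+siNT and 4.36, 3.72 and 3.48 in parental+siNT. Its log2 fold change was -0.99 (SE 0.16, adjusted p = 0.000567), with 62 to 73 counts a library against 163 to 202. Of these 3 genes AKR1C2 shares the most sequence, and the part of that sharing in its value was not tested. The median log2 difference of 31 expressed neighbours of the AKR1C genes within 5 Mb was 0.04.

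The division of AKR1C counts between the genes differed between the populations. AKR1C3 took 90.0% ± 0.668 (SD, n = 3) of the summed counts in TKO+siNT and 81.2% ± 0.754 (SD, n = 3) in parental+siNT, and AKR1C2 took 1.09% and 4.63%. In untreated cells AKR1C3 took 87.5% and 89.1% of them in parental cells and 95.5% and 95.6% in TKO. AKR1C counts were also added into 1 feature, which is less affected by the division between the genes but does not recover reads that were not counted. This sum was higher in TKO+siNT by a log2 fold change of 1.09 (SE 0.11, adjusted p = 1.81e-05).

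**Figure D2:**
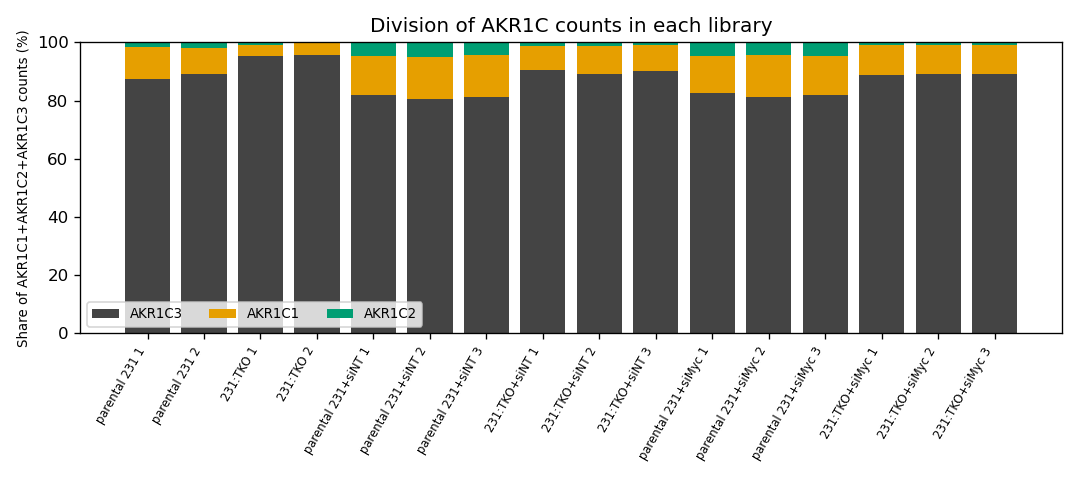
Share of the summed AKR1C1, AKR1C2 and AKR1C3 counts (%) that each gene took, a bar per library. AKR1C3 takes 80.5% to 82.5% in parental siRNA libraries and 88.8% to 90.6% in TKO siRNA libraries, and AKR1C2 takes 4.44% to 4.92% against 0.805% to 1.17%.

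Among the other genes, NQO1 was at 388, 383 and 387 CPM in TKO+siNT and at 238, 199 and 199 in parental+siNT. The TKO+siNT replicates lay close together and all were above the parental ones (log2 fold change 0.90, SE 0.09, adjusted p = 2.58e-05). HMOX1 was at 49.7, 64.2 and 54.0 CPM against 36.2, 32.5 and 33.1 (log2 fold change 0.76, SE 0.11, adjusted p = 0.000267). GCLC was at 47.9, 48.8 and 47.9 CPM against 29.8, 35.6 and 34.97, with a log2 fold change of 0.56 (SE 0.10, adjusted p = 0.000984). GCLM rose less, from 90.4 to 94.8 CPM up to 112 to 121 CPM (0.38, SE 0.08, adjusted p = 0.00407). AKR1B1, at 327 to 352 CPM against 229 to 299.8, had a log2 fold change of 0.43 (SE 0.11, adjusted p = 0.00854), but its 47 expressed neighbours within 5 Mb had a median of 0.51, and without TKO+siNT replicate 2 its adjusted p was 0.0528. SRXN1 was at 12.4 to 13.9 CPM in TKO+siNT, inside the 9.05 to 15.0 of parental+siNT, and did not pass the test (0.10, SE 0.17, adjusted p = 0.694).

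**Figure D3:**
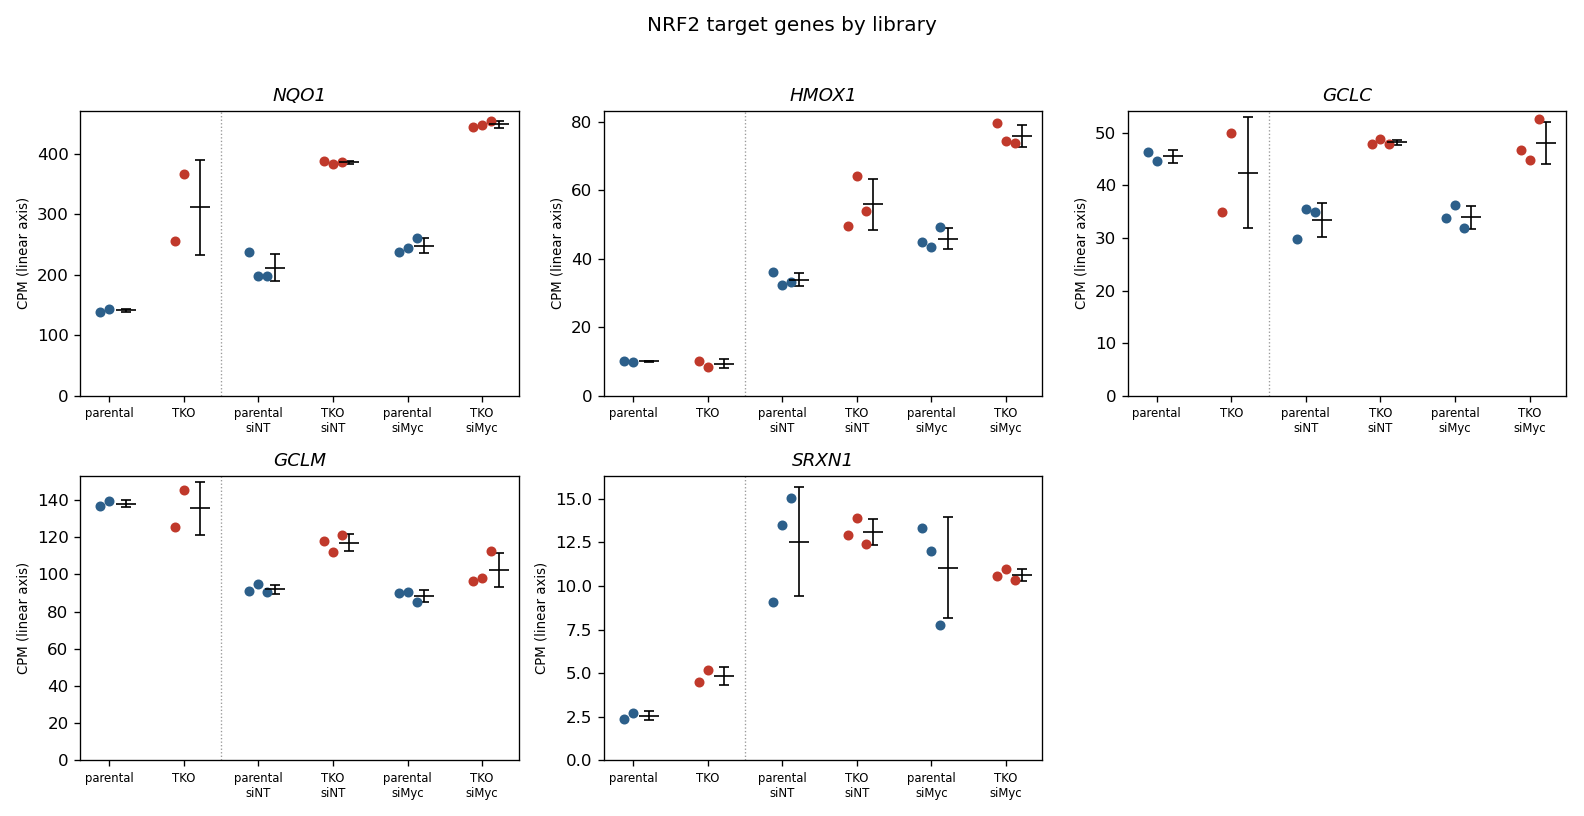
CPM of NQO1, HMOX1, GCLC, GCLM and SRXN1 in each library (points; red TKO, blue parental cells) for the 6 conditions, with the mean and SD (black). HMOX1 is between 8.48 and 10.2 CPM in the untreated libraries and between 32.5 and 79.6 CPM in the siRNA libraries, and the SRXN1 groups overlap between populations in the siRNA libraries.

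The same comparison was made with Myc depleted. In TKO+siMyc against parental+siMyc, 6 of the 9 genes were higher and AKR1C2 was lower, where 40.6% of 23561 genes were called, 18.8% higher and 21.7% lower. AKR1C3 was at 213, 194 and 203 CPM against 79.5, 74.3 and 88.2 (log2 fold change 1.34, SE 0.10, adjusted p = 2.09e-07). AKR1C1 was at 24.9, 21.4 and 22.2 CPM against 12.5, 12.9 and 14.1 (0.80, SE 0.10, adjusted p = 4.70e-05). The replicates of both genes stayed apart by population. AKR1C2 was at 1.93, 2.11 and 2.26 CPM against 4.38, 4.11 and 5.17, a log2 fold change of -1.11 (SE 0.15, adjusted p = 5.54e-05). The AKR1C sum was higher by 1.22 (SE 0.10, adjusted p = 4.69e-07).

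NQO1 (log2 fold change 0.86, adjusted p = 4.10e-06), HMOX1 (0.73, adjusted p = 4.35e-05), GCLC (0.51, adjusted p = 0.00125) and AKR1B1 (0.39, adjusted p = 0.00633) were higher in TKO+siMyc as well by edgeR's test. For AKR1B1 the median of 47 expressed neighbours was 0.46, and its adjusted p was 0.0501 without TKO+siMyc replicate 1. GCLM was at 96.5, 97.9 and 113 CPM against 89.9, 90.7 and 85.0, apart in every replicate but short of the threshold (0.21, SE 0.09, adjusted p = 0.0874). Without parental+siMyc replicate 3, GCLM passed it with an adjusted p of 0.0194, and SRXN1, which otherwise overlapped and missed it (-0.05, adjusted p = 0.825), was called lower (-0.25, adjusted p = 0.0188).

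**Figure D4:**
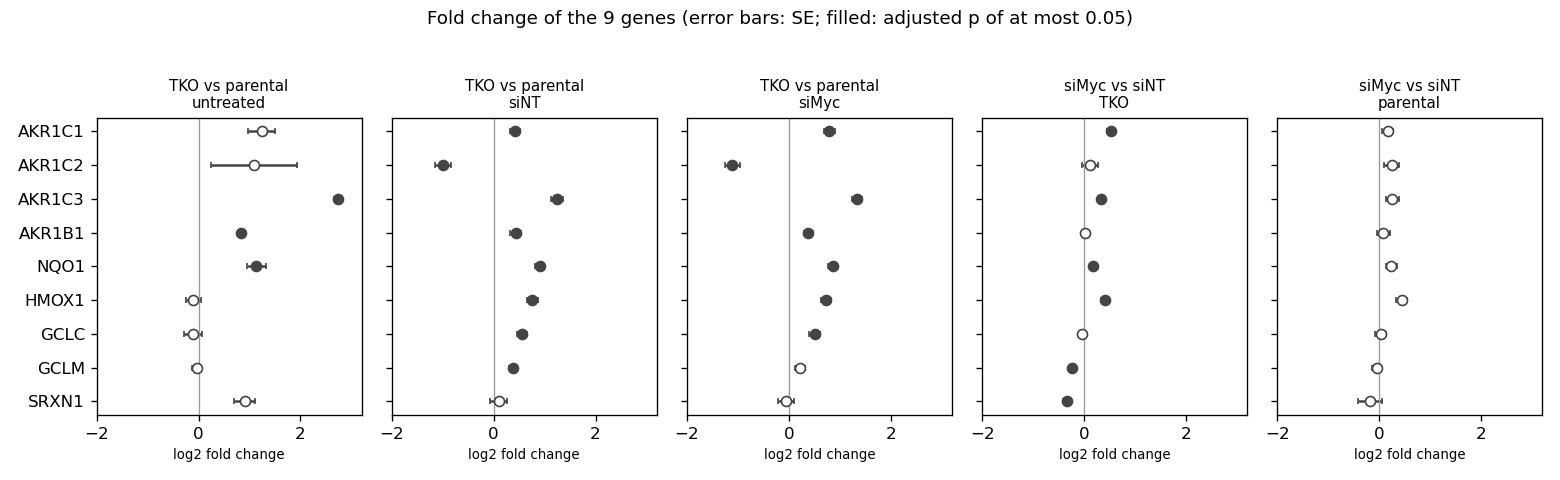
Log2 fold change of the 9 genes in the 5 pairwise comparisons, with the SE as error bars and filled points where the adjusted p was at most 0.05. AKR1C2 lies at -0.99 and -1.11 between siRNA-treated populations while AKR1C3 lies at 1.24 and 1.34, and the changes with siMyc are smaller than these for both genes.

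Among the NRF2 regulators in the siRNA libraries, NFE2L2 was higher in TKO and KEAP1 lower. NFE2L2 was at 147, 143 and 147 CPM in TKO+siNT and at 110, 106 and 103 in parental+siNT (log2 fold change 0.49, SE 0.08, adjusted p = 0.000675), and it was higher in TKO+siMyc too (0.53, adjusted p = 0.000342). KEAP1 was at 109, 113 and 108 CPM in TKO+siNT and at 153, 137 and 152 in parental+siNT. Its log2 fold change was -0.39 (SE 0.08, adjusted p = 0.00409) with siNT and -0.49 (adjusted p = 0.000524) with siMyc, opposite in sign to the untreated libraries. Of 15 control genes, 6 were called higher and 4 lower in each siRNA comparison. Over all genes tested, 16.1% were higher and 20.7% lower with siNT, and 18.8% and 21.7% with siMyc. CREBBP, a coactivator that acetylates NRF2, BACH2, a repressor related to BACH1, and GSK3B, a kinase that marks NRF2 for degradation, were higher with siNT by log2 fold changes of 1.33, 1.58 and 0.65. MAFF, MAFK and RBX1, a subunit of the KEAP1 ubiquitin ligase, were lower, with log2 fold changes of -0.82, -0.76 and -0.60. BACH2 and RBX1 lay in the opposite order without treatment. Untreated BACH2 was at 6.07 to 7.07 CPM in parental cells and 3.05 to 5.67 in TKO, and RBX1 at 33.5 to 34.5 and 40.4 to 41.8. MAFG is not reported here for the siRNA libraries.

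Other NRF2 target genes were called more often higher than lower in the siRNA libraries. With siNT, 22 of 40 tested were higher and 6 lower, beside 16.1% and 20.7% of all genes tested. Their median log2 fold change was 0.50 against -0.03 over all genes tested. With siMyc the counts were 23 and 4 of 40, beside 18.8% and 21.7% of all genes, and the median was 0.53 against -0.01. SLC7A11 rose from 35.8 to 149 CPM with siNT (log2 fold change 2.09, SE 0.15, adjusted p = 1.33e-06). LUCAT1, a long noncoding RNA, rose from 5.82 to 27.8 CPM (2.29, adjusted p = 9.53e-08), and CYP4F11, a fatty acid hydroxylase, from 0.0140 to 2.07 CPM (adjusted p = 2.99e-07). With siMyc, PIR, an iron-binding nuclear protein, rose from 10.2 to 27.6 CPM (1.44, adjusted p = 8.09e-07). The aldehyde dehydrogenase ALDH3A1 fell from 2.05 to 0.181 CPM with siNT (-3.44, adjusted p = 1.70e-05), CAT, catalase, from 87.2 to 56.8 CPM (-0.58, adjusted p = 0.000285), and KYNU, kynureninase, from 18.8 to 13.2 CPM (-0.47, adjusted p = 0.0159).

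**Figure D5:**
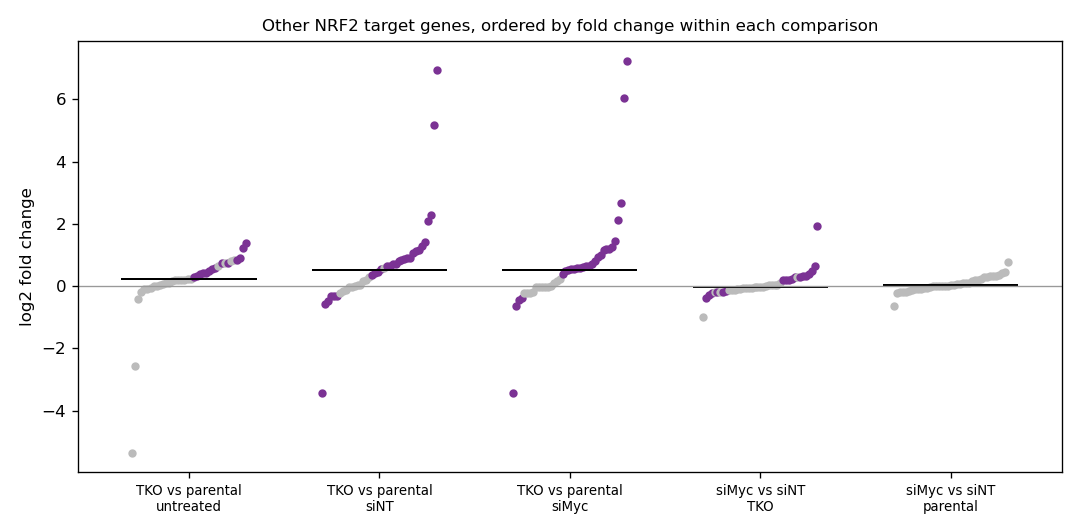
Log2 fold change of the other NRF2 target genes tested in each pairwise comparison (points, ordered by value; purple where the adjusted p was at most 0.05, grey otherwise), with the median as a black line. The medians are 0.23, 0.50 and 0.53 for the comparisons of TKO with parental cells and -0.03 and 0.02 for siMyc with siNT in TKO and parental cells.

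Partner pathways of the 9 genes were mixed in the comparison of the siNT-treated populations. Of 38 other glutathione genes tested, 6 were higher and 16 lower (median -0.22). GSR, glutathione reductase, rose from 55.7 to 88.7 CPM (log2 fold change 0.71, adjusted p = 5.89e-05), while the gamma-glutamyl transferase family members GGT5, GGT1 and GGT7 had log2 fold changes of -2.07, -3.36 and -2.01. Of 20 heme and iron genes, 4 were higher and 8 lower. FTL, ferritin light chain, rose from 1918 to 4167 CPM (1.16, adjusted p = 1.67e-05) and TFRC, the transferrin receptor, from 398 to 766 CPM (0.98). BLVRA, biliverdin reductase, which acts on the product of HMOX1, fell from 84.8 to 40.3 CPM (-1.04, adjusted p = 7.64e-05), and the heme synthesis enzyme PPOX was lower, with -0.62. Without treatment BLVRA lay in the opposite order, at 25.2 to 27.6 CPM in parental cells and 28.7 to 32.5 in TKO.

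Of 30 steroid and prostaglandin enzymes tested, 6 were higher and 11 lower in TKO+siNT. PTGS1, cyclooxygenase 1, rose from 1.65 to 16.9 CPM (log2 fold change 3.39, adjusted p = 1.33e-08), SRD5A3, a polyprenol reductase, from 3.34 to 20.6 CPM (2.66), and STS, steroid sulfatase, from 66.9 to 158 CPM (1.27). PTGS2, cyclooxygenase 2, fell from 9.21 to 0.00940 CPM (adjusted p = 1.08e-08), HSD3B1 from 5.87 to 0.0289 CPM (adjusted p = 9.36e-09) and HPGD, which inactivates prostaglandins, from 3.95 to 0.867 CPM (-2.15). Without treatment the order of PTGS1 was opposite, at 18.9 to 20.7 CPM in parental cells and 5.15 to 15.8 in TKO. PTGS2 and HSD3B1 averaged only 0.0758 and 0.101 CPM in untreated parental cells. Of 11 other aldo-keto reductases, 3 were higher and 2 lower, among them AKR1B10 (1.12, from 1.34 to 2.83 CPM), the potassium channel subunit KCNAB2 (1.81, from 6.31 to 21.6 CPM) and AKR7A2 (-0.32). Of 8 polyol pathway partners of AKR1B1, SORD, sorbitol dehydrogenase, was higher (0.24, adjusted p = 0.0492) and 4 were lower, including HK2 (-0.55), ALDOC (-0.995) and the fructose transporter SLC2A5 (-1.72).

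For reading these counts, 36.8% of all genes tested were called between the siNT-treated populations. In the siMyc-treated populations, where 40.6% of all genes were called, these lists gave 7 higher and 19 lower of 38 other glutathione genes, 5 and 7 of 20 heme and iron genes, 8 and 9 of 29 steroid and prostaglandin enzymes, 4 and 3 of 11 other aldo-keto reductases, and 2 and 4 of 8 polyol pathway partners. CHAC1, which degrades glutathione, was at 6.34 CPM in TKO+siMyc and 42.1 in parental+siMyc (log2 fold change -2.73, adjusted p = 1.49e-09 from edgeR). In untreated cells, with 9.62% of all genes called and as a description, the counts were 8 and 2 of 38, 5 and 1 of 20, 4 and 0 of 25, 0 and 1 of 8, and 0 and 0 of 8 in the same order. With siMyc in TKO, with 27.2% of all genes called, they were 17 and 7 of 38, 9 and 2 of 20, 6 and 5 of 27, 1 and 0 of 10, and 1 and 3 of 8. TFRC was lower with siMyc in TKO (-0.65, adjusted p = 6.54e-09), as was SORD (-0.58, adjusted p = 1.13e-07).

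What Myc depletion did to the 9 genes was asked separately in each population. In TKO cells, AKR1C1, HMOX1, AKR1C3 and NQO1 rose with siMyc and GCLM and SRXN1 fell, while AKR1C2, AKR1B1 and GCLC did not pass the test. By edgeR, 4 of 9 were called higher and 2 lower, where 27.2% of 22427 genes were called, 13.3% higher and 13.9% lower. AKR1C1, given above in every replicate, rose most, with a log2 fold change of 0.54 (SE 0.07, adjusted p = 9.50e-06), from 15.4 ± 0.230 CPM to 22.8 ± 1.82 (SD, n = 3). HMOX1 rose from 56.0 ± 7.44 to 76.0 ± 3.17 CPM (SD, n = 3), a change of 0.41 (SE 0.07, adjusted p = 0.000139). AKR1C3 rose by 0.34 (SE 0.06, adjusted p = 0.000102) and NQO1 by 0.18 (SE 0.04, adjusted p = 0.00291), from 383 to 388 CPM up to 444 to 455 CPM. In these 4 genes every siMyc library was above every siNT library.

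GCLM was at 118, 112 and 121 CPM with siNT and at 96.5, 97.9 and 113 with siMyc in TKO, so its highest siMyc library overlapped the siNT range (log2 fold change -0.23, SE 0.06, adjusted p = 0.00504). SRXN1 was at 12.9, 13.9 and 12.4 CPM against 10.6, 10.96 and 10.3, with no overlap (-0.33, SE 0.08, adjusted p = 0.00310). AKR1C2 (0.12, adjusted p = 0.660), AKR1B1 (0.02, adjusted p = 0.828) and GCLC (-0.04, adjusted p = 0.727) overlapped. The AKR1C sum rose by 0.36 (SE 0.06, adjusted p = 4.58e-05). All 6 calls stood with each library left out, but with 1 fit of the 12 siRNA libraries, which share 1 estimate of the spread, NQO1 (adjusted p = 0.126), GCLM (0.157) and SRXN1 (0.418) missed the threshold. Other NRF2 target genes in TKO split into 12 higher and 6 lower of 41 tested, beside 13.3% and 13.9% of all genes, with a median of -0.03. In the joint fit 7 of these target genes were called in place of 18. ABCC3, an efflux transporter, and EPHX1 rose by 0.64 and 0.39, and ABCC4, LUCAT1 and PRDX1 had log2 fold changes of -0.39, -0.29 and -0.21. SQSTM1, whose product binds KEAP1, rose by 0.30 (adjusted p = 7.55e-05), and FTL by 0.34 (adjusted p = 1.42e-05).

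In parental cells, 0 of the 9 genes were called with siMyc by edgeR, where 0.595% of 23715 genes were called. HMOX1 had the lowest unadjusted p of the 9 by edgeR (0.00207), and DESeq2 called only HMOX1 among them, beside 1126 over all genes. HMOX1 was at 36.2, 32.5 and 33.1 CPM with siNT and at 45.0, 43.4 and 49.3 with siMyc, with no overlap (log2 fold change 0.44, SE 0.10, adjusted p = 0.0933). NQO1, at 238, 199 and 199 CPM with siNT and 238, 245 and 262 with siMyc, had a log2 fold change of 0.24 (SE 0.11, adjusted p = 0.355), and AKR1C3 of 0.26 (SE 0.13, adjusted p = 0.408). For AKR1C1, AKR1C2, AKR1C3, AKR1B1, NQO1 and HMOX1 the siNT library with the highest value was replicate 1, and for GCLC and SRXN1 this replicate had the lowest, and it is in the pair of libraries that deviated together. With a factor for that pair, an alternative added after the data were seen, AKR1C3 (adjusted p = 6.61e-06), NQO1 (8.53e-06) and HMOX1 (3.70e-10) were called higher, at log2 fold changes of 0.26, 0.24 and 0.44. With the pair left out the same 3 genes were called. Over all genes, 6361 were called with the factor and 4675 with the pair left out, against 141 in the main fit. AKR1C1 had a log2 fold change of 0.17 (adjusted p = 0.565, and 0.0790 with the factor). Of the other NRF2 target genes, 0 of 39 were called by edgeR and 3 by DESeq2, while 15 were called with the factor and 15 with the pair left out, and of the polyol pathway partners only SORD was called, with a log2 fold change of -0.58 (adjusted p = 0.0492).

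The difference between the responses of the populations to siMyc was tested as an interaction over the 12 siRNA libraries. It was called for 0 of the 9 genes and for 0% of 25812 genes by edgeR, of which 1039 had an unadjusted p under 0.05, and DESeq2 called 6 genes, none of them among the 9. AKR1C1 had the largest value of the 9, with a response 0.40 larger on the log2 scale in TKO (SE 0.14, unadjusted p = 0.0102, adjusted p = 1.00). With the factor for the pair of parental libraries its adjusted p was 0.0552, and with that pair left out 0.357. The other 8 interaction values lay between -0.15 and 0.11, each with a SE of 0.12 to 0.27.

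Between the untreated and the siRNA libraries, the levels of several genes differed, a contrast in which transfection, sequencing layout and library set cannot be told apart and which was not tested. In parental cells, AKR1C3 averaged 11.7 CPM untreated and 67.8 with siNT, AKR1C1 1.34 and 11.8, HMOX1 10.0 and 33.9, and SRXN1 2.56 and 12.5. GCLM was lower in the siNT libraries, at 92.0 CPM against 138 untreated. The gap in AKR1C3 between the populations was 6.65-fold untreated and 2.37-fold with siNT, and the difference of these was not tested.

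By the Pearson correlation of log2(CPM + 1), the genes most like AKR1C3 over all 16 libraries were EMP1 (r = 0.983), BTC (0.979), ACSS1 (0.978), TLR2 (0.976) and BIN1 (0.974), out of 13439 genes with a mean of at least 1 CPM. Over the 12 siRNA libraries alone they were AQP3 (r = 0.994), LY96 (0.991), NDRG2, LYRM2 and PI16 (each 0.990), out of 13522 genes, and no gene was in both lists of 5. These values describe likeness across libraries that share their condition, layout and set.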

How the data were processed

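RNA of 16 MDA-MB-231 libraries was prepared by the authors with a stranded mRNA kit and aligned to GRCh38 with STAR (version not given in the sources used here). The deposited values are raw counts per Ensembl gene, which the authors made with featureCounts 1.6.3 set to the reverse strand and to the largest overlap. The file headers name annotation release 104 for the 6 parental siRNA libraries and release 102 for the other 10, and single reads for the untreated libraries and read pairs for the siRNA libraries. The 60620 gene identifiers present in both releases were used.

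Genes with more than 5 counts summed over a comparison's libraries entered the robust quasi-likelihood test of edgeR 4.0.16 under R 4.3.3 (TMM scaling, Benjamini-Hochberg adjustment over all genes tested, adjusted p of at most 0.05). Each comparison was fitted on its own libraries, and the interaction on the 12 siRNA libraries. The steps were tested on simulated data. Alternatives were DESeq2 1.42.0 as the test or for size factors, both other filters, stricter thresholds, summed AKR1C counts, 1 fit of the 12 siRNA libraries, the replicate number as a block, and each library left out in turn. The 9 genes and the gene lists were chosen with earlier results of these data known. All 9 genes were tested in every comparison, but not each is named there with its values. From each other list, the text draws on up to 3 genes with the highest and up to 3 with the lowest log2 fold change among called genes that averaged 1 CPM or more and whose groups did not overlap, and KEAP1 and NFE2L2 are also given where the rule did not name them. Some genes that the rule names are not reported here. Total counts limit the precision of AKR1C2 most, which had as few as 4 counts in a library.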

Additional observations from a re-analysis of the deposited data

Results flagged for a closer look

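KEAP1, which targets NRF2 for degradation, differed between the populations in opposite directions in untreated and in siRNA-treated cells. Its log2 fold change in TKO against parental cells was 0.45 without treatment, -0.39 with siNT and -0.49 with siMyc, and every library followed the direction of its comparison. KCNAB2, an aldo-keto reductase family member that serves as a potassium channel subunit, had log2 fold changes of -1.62 without treatment, 1.81 with siNT and 2.16 with siMyc, again in every library. PTGS1, BACH2, RBX1 and BLVRA, given above, also lay in opposite orders in untreated and siNT-treated cells, without overlap between the groups. The difference between these effects was not tested, and treatment, sequencing layout, annotation release and library set cannot be told apart in it.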

How the results depend on the processing

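Of 845 values of the 9 genes under other settings, 776 kept their direction and their side of the threshold, 22 fell short of it, 21 newly passed it and 26 changed sign. The AKR1C sum is not among these values. Untreated, the number of the 9 genes called ranged from 0 to 8 on leaving out a library, and the AKR1C sum lay between 2.56 and 2.68 on the log2 scale, with an adjusted p of up to 0.261 by edgeR. With a log2 fold change of at least 0.5 also required, 5 genes were called between siNT populations, beside 2802 higher and 3455 lower of 23310 genes. With siMyc in TKO it left 1, beside 1639 of 22427 genes, and the AKR1C sum (0.36) was no longer called. In TKO 1 fit of the 12 siRNA libraries called 3, beside 2493 of 25812 genes. In parental cells, siMyc gave 1 call by DESeq2 and 1 in that joint fit, beside 1126 and 1666 over all genes. With the factor for 2 parental libraries or without them, alternatives chosen after seeing the data, it gave 3, and the AKR1C sum was called at 0.25 and 0.28. The cause was not tested.

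Some values changed sign on leaving out a library. Their lowest and highest log2 values were, untreated, -0.41 and 1.79 for AKR1C2, -0.26 and 0.023 for HMOX1, -0.39 and 0.11 for GCLC, and -0.15 and 0.058 for GCLM. Between populations SRXN1 ranged from -0.076 to 0.26 with siNT and from -0.25 to 0.11 with siMyc. With siMyc in TKO, AKR1B1 ranged from -0.045 to 0.068 and GCLC from -0.10 to 0.0019. In parental cells, AKR1B1 ranged from -0.00025 to 0.20, GCLC from -0.054 to 0.077 (-0.014 without the 2 parental libraries), and SRXN1 from -0.37 to 0.014. For the interaction, AKR1C3 ranged from -0.059 to 0.18, AKR1B1 from -0.21 to 0.040, NQO1 from -0.17 to 0.014, HMOX1 from -0.10 to 0.10, GCLC from -0.13 to 0.0054, SRXN1 from -0.38 to 0.031 and the AKR1C sum from -0.022 to 0.20.

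The deviations of same-numbered replicates from their group means correlated between -0.889 and 0.756. These deviations were not always most alike for the same number, and the numbers were not taken to pair the samples. With the replicate block, 3, 8, 7, 6, 0 and 0 of the 9 genes were called in the comparisons in the order reported, ending with the interaction. Beside these, the block called 3831 of 23310 genes higher and 4650 lower between siNT populations. Between siMyc populations it called 3857 and 4325 of 23561, and with siMyc in TKO 3362 and 3462 of 22427. Over all genes, calls went with the block from 1919 to 903 untreated and from 141 to 0 for siMyc in parental cells. Other settings moved them untreated to 229 (adjusted p of at most 0.01), and in TKO with siMyc from 6107 to 1639 (log2 fold change of at least 0.5) and 2493 (joint fit). In parental cells with siMyc they moved to 0 (adjusted p of at most 0.01), 91 (DESeq2 size factors), 330 (no filter), 225 (more than 5 counts in every library), 1126 (DESeq2), 1666 (joint fit), 6361 (factor) and 4675 (2 libraries left out). The number of other NRF2 target genes called moved untreated from 14 to 3 (adjusted p of at most 0.01), 8 (log2 fold change of at least 0.5), 7 (replicate block) and between 0 and 27 on leaving out a library. With siMyc it moved in TKO from 18 to 2 (log2 fold change of at least 0.5) and 7 (joint fit), and in parental cells from 0 to 3 (DESeq2), 4 (joint fit), 15 (factor) and 15 (2 libraries left out). For the interaction it moved from 0 to 1 with the factor. Over all genes, the interaction moved from 0 to 6 (DESeq2), 147 (factor) and 63 (2 libraries left out).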
